A study of Mus musculus with 38 samples.

Results

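MHC class I antigen presentation was followed here through 10 genes, chosen by symbol among the 35682 genes counted in isolated cells of the mouse heart. The genes were Psmb8, Psmb9, Psmb10, Tap1, Tap2, Tapbp, H2-K1, H2-D1, B2m and Nlrc5. They were picked as a group for the higher Tap2 level with empagliflozin in endothelial cells (ECs), so the comparison of treated with untreated infarcted ECs is given as a description, with no test. The mice were C57BL/6 males, 8 to 12 weeks old. They were given vehicle (5% dimethylsulfoxide in saline) or empagliflozin (EMPA), an inhibitor of the glucose carrier SGLT2, by mouth every day for 6 weeks. Sham mice had vehicle and an open chest operation, Control-AMI mice (labelled Control_IR) had vehicle, 30 min of ligation of the left anterior descending artery and 2 h of reperfusion, and EMPA–Pre-AMI mice (labelled EMPA_IR) had EMPA at 10 mg/kg/d and the same ligation and reperfusion. Each library came from 2 pooled hearts. ECs (CD45-, CD31+) and fibroblasts (CD45-, CD31-, CD90+) were sorted by flow cytometry, and cardiomyocytes were sedimented without a sort. The study's methods name the CD45 antibody as specific for CD45.1, an allelic form that C57BL/6 mice do not usually carry, and how far the gate removed leukocytes was not tested. By those methods the pellet and the sorted cells came from 1 digest, so libraries of different populations may share hearts, and tests between populations treated them as independent. There were 4 EC libraries from Sham, 4 from Control-AMI and 5 from EMPA–Pre-AMI hearts, 4 of each for fibroblasts, and 4, 5 and 4 for cardiomyocytes.

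Class I molecules carry short peptides from inside the cell to its surface, where cytotoxic T cells read them. The proteasome cuts the peptides, the TAP transporter moves them into the endoplasmic reticulum, and tapasin helps to load them onto a heavy chain paired with beta-2 microglobulin. Interferon raises most genes of this chain of steps, and vascular endothelium is a tissue known for carrying class I at its surface.

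Library totals were 1352528 to 2195319 counts in ECs, 1946070 to 2821386 in fibroblasts and 2031726 to 4509305 in cardiomyocytes, where mitochondrially encoded genes took 46.6% to 66% of the counts. Values are CPM, counts scaled by edgeR's TMM factors to a common library total. The summed CPM of 10 endothelial markers was 8896 to 17760 in EC libraries and 158 to 1009 in fibroblast libraries, and that of 10 fibroblast markers was 742 to 14333 in EC libraries and 31319 to 52980 in fibroblast libraries. In 1 EC library, Control-AMI library 1, fibroblast markers (14333 CPM) exceeded endothelial markers (8896 CPM), against its label, and the values of Psmb9, Psmb8 and Tap2 that use it are also given without it. The cardiomyocyte libraries also held 569 to 1508 CPM of these endothelial markers and 361 to 3190 CPM of 10 fibroblast markers. Fewer cells of a type and less RNA per cell cannot be told apart in such libraries. Few counts lay behind Nlrc5, Psmb9 and Tap2 outside ECs. A filter on low counts kept all 10 genes in ECs, 9 in fibroblasts (not Nlrc5) and 7 in cardiomyocytes (not Tap2, Psmb9 and Nlrc5).

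Of the 10 genes, B2m lies on chromosome 2, Psmb10 and Nlrc5 on chromosome 8, and the rest in or beside the major histocompatibility complex on chromosome 17. In the GRCm39 build, Psmb9 (34400960 to 34406738), Tap1 (34405996 to 34416199), Psmb8 (34416690 to 34420428) and Tap2 (34422501 to 34435829) follow each other on chromosome 17. In this annotation, which takes a gene's outermost transcripts, the first pair overlap by 743 bases on opposite strands, at their 5′ ends, away from the 3′ ends that these libraries read. Promoter sequences were at hand for 8 of the 10 genes in the RefSeq table of build GRCm38.p6, and not for Tap2 and Nlrc5. They are shown for the heavy chains, for B2m and for the stretch shared by Tap1 and Psmb9, because the heavy chains and B2m are the textbook targets of NLRC5 and interferon, and because Tap1 and Psmb9 start from a common stretch. Each sequence ends at the base before the transcription start and runs 5′ to 3′ on the gene's own strand, with Tap1's strand for the shared stretch. Capitals mark every match, on either strand, to GAANNGAAA, the NF-kappaB consensus of 10 letters, TGACG (the X2 element) and CCAAT. GAANNGAAA is a form of the core of the interferon response element bound by IRF factors, and is called the interferon motif below. Matches that overlap run together.
H2-K1, GRCm38.p6 chr17:34000348-34000597, minus strand: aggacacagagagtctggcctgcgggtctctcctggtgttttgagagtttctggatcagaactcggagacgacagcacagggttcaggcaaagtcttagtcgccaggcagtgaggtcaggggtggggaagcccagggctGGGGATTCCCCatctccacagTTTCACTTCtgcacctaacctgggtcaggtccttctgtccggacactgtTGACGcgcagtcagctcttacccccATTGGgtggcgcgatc
H2-D1, GRCm38.p6 chr17:35262844-35263093, plus strand: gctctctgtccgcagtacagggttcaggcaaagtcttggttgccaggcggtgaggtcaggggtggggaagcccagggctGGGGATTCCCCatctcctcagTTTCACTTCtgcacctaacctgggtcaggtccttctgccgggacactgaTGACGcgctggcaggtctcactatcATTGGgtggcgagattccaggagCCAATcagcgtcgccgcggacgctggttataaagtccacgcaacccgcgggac
B2m, GRCm38.p6 chr2:122147437-122147686, plus strand: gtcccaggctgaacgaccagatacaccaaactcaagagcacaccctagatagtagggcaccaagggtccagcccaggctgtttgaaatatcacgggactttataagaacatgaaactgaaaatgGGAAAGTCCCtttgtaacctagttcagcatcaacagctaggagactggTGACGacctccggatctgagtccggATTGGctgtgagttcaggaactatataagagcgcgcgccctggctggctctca
Tap1 and Psmb9, GRCm38.p6 chr17:34187331-34187555, plus strand: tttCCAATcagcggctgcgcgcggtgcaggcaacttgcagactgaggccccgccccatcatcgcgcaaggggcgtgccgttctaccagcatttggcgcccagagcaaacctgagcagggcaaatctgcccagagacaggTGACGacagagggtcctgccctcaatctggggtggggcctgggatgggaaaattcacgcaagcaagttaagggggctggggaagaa

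H2-K1 and H2-D1 each held an NF-kappaB match, then TTTCACTTC (the interferon element read on the other strand), then TGACG, then CCAAT on the other strand, and H2-D1 held a further CCAAT nearer its start. B2m held the NF-kappaB match, TGACG and CCAAT without a match to GAANNGAAA. It did hold gaaactgaaa just upstream of the NF-kappaB match, with an A more than the letters searched. The search missed that run, and B2m is not among the windows counted for the interferon motif. The RefSeq table had 2 windows for H2-K1, of which the one with the most upstream start is shown. For Tap1 and Psmb9 it had 1 each, and by those starts Tap1 and Psmb9 do not overlap. The 225 bases between them held TGACG and CCAAT. Among all 32851 windows of 250 bases, 6.31% held the interferon motif, 7.25% the NF-kappaB consensus, 17.8% TGACG and 33.8% CCAAT. Of the 8 windows of these genes, 2, 3, 5 and 6 held them in that order. These are matches of letters and say nothing of binding.

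In Sham hearts, most class I presentation genes were more abundant in ECs than in the other populations. The choice of genes did not use this comparison. All 38 libraries were scaled together for it, and the infarcted ones entered only through that scaling and the estimate of the spread. By lists inferred from the sample descriptions, explained further on, no Sham EC library shared a list with a Sham fibroblast or Sham cardiomyocyte library. A difference between those lists and a difference of ECs from the other populations cannot be told apart here. Relative to fibroblasts, 8 of the 10 genes were higher in ECs at an FDR below 0.05 and none was lower, where 17.6% of the 12085 genes tested were higher in ECs. Relative to cardiomyocytes, 8 of 10 were again higher, beside 24.8% of all genes. The genes' median log2 difference was 1.18 against fibroblasts and 1.95 against cardiomyocytes, and the medians of all genes were -0.04 and 0.04.

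**Figure D1:**
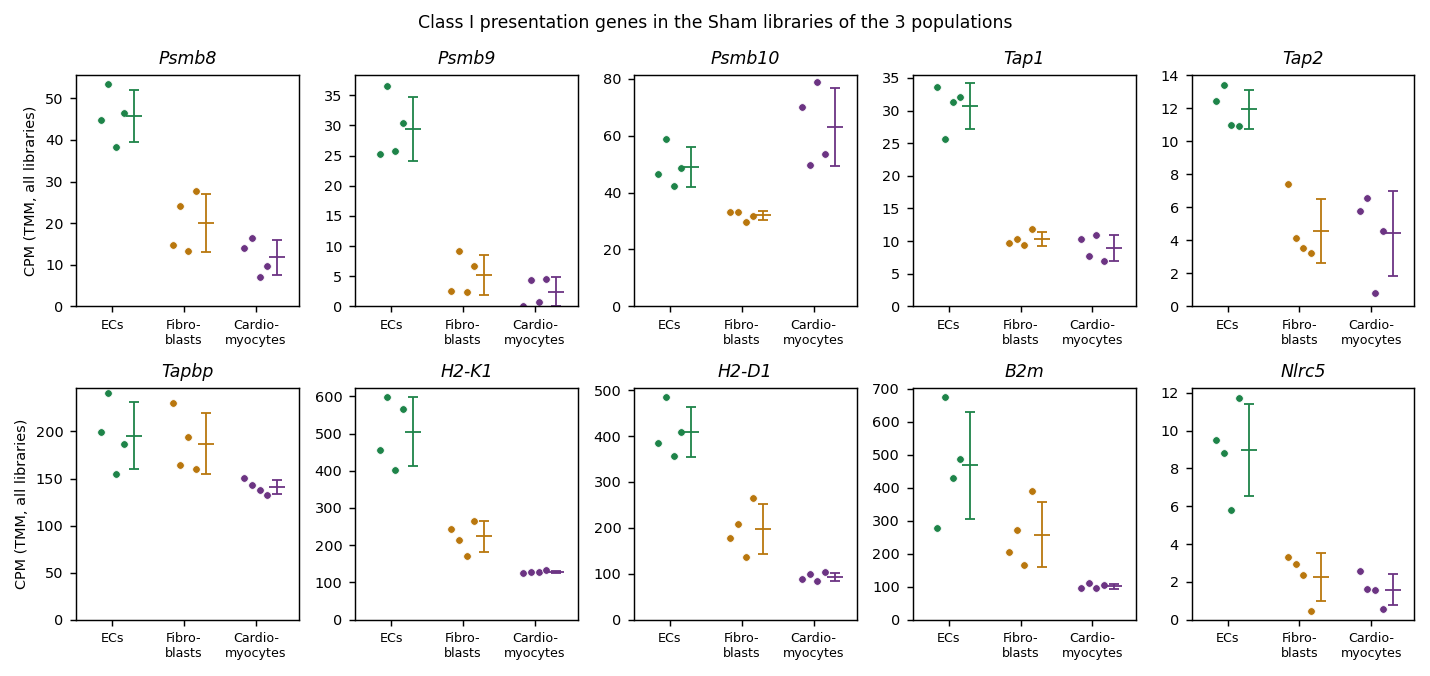
CPM (linear axes from 0, TMM over all libraries) of each gene in the 4 Sham libraries of ECs, fibroblasts and cardiomyocytes. Points are libraries and bars show mean ± SD. The EC points lie above the others for most genes, Psmb10 has its highest mean in cardiomyocytes, and Tapbp differs least.

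Psmb9 and Psmb8 encode inducible catalytic subunits that replace constitutive ones to form the immunoproteasome. Psmb9 had 25.2, 36.6, 25.7 and 30.4 CPM in the Sham EC libraries, 2.55, 9.13, 2.36 and 6.69 in fibroblasts, and 0, 4.38, 0.782 and 4.59 in cardiomyocytes. No value of another population reached the lowest EC value. The log2 difference of ECs was 2.50 ± 0.45 (SE) from fibroblasts (edgeR FDR = 1.65e-05) and 3.48 ± 0.54 from cardiomyocytes (edgeR FDR = 7.75e-07), the widest of the 10 genes in both comparisons. The second highest and the highest Psmb9 value of the fibroblasts were in libraries 4 and 2. Library 2 of the Sham fibroblasts also held 644 CPM of 14 leukocyte markers, where the other 3 held 11.3 to 37.7, and without it the difference from ECs was 2.89 on the log2 scale (edgeR FDR = 9.87e-06). Psmb8 averaged 45.8 ± 6.18 CPM (SD, n = 4) in ECs, 20 ± 7.03 in fibroblasts and 11.8 ± 4.23 in cardiomyocytes, and was higher in ECs than in both.

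Psmb10, the remaining inducible subunit, had another order. Its values were 46.4, 58.8, 42.3 and 48.7 CPM in ECs, 33.2, 33, 29.8 and 31.8 in fibroblasts, and 70.1, 49.8, 79 and 53.4 in cardiomyocytes. Cardiomyocytes and ECs overlapped, and fibroblasts were lower than both. The log2 difference of ECs from fibroblasts was 0.62 ± 0.23 (edgeR FDR = 0.0331), and that of fibroblasts from cardiomyocytes was -0.97 ± 0.24 (edgeR FDR = 0.000822). The first of these calls was lost in 5 of the 8 fits that left out a library, at FDR values of up to 0.111.

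The constitutive subunits Psmb5, Psmb6 and Psmb7, whose places the inducible ones take, were lower in ECs than in cardiomyocytes. Psmb5 averaged 34.7 ± 4.14 CPM in Sham ECs and 112 ± 16.3 in Sham cardiomyocytes, a log2 difference of -1.69 ± 0.23 (edgeR FDR = 5.02e-08). Of the 14 genes of the constitutive core, 9 were lower and 0 higher in ECs than in cardiomyocytes, and 4 lower and 0 higher than in fibroblasts, where 28.1% and 20.2% of all genes were lower in ECs. The ratio of the summed counts of Psmb8, Psmb9 and Psmb10 to those of Psmb5, Psmb6 and Psmb7, which needs no scaling between libraries, was 0.908 to 1.45 in Sham ECs, 0.333 to 0.486 in Sham fibroblasts and 0.206 to 0.243 in Sham cardiomyocytes. The ranges of the 3 populations did not overlap.

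**Figure D2:**
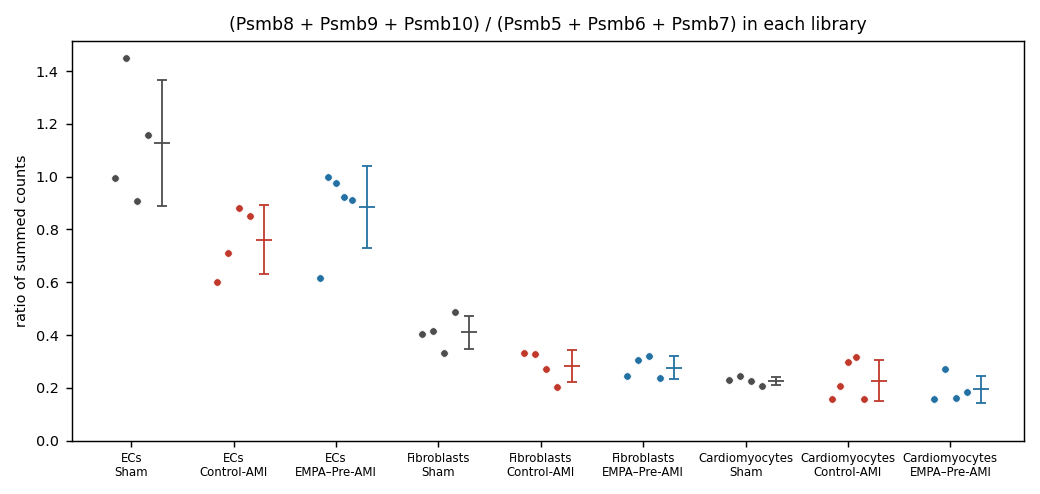
Ratio of the summed counts of the inducible subunits (Psmb8, Psmb9, Psmb10) to those of the constitutive subunits they replace (Psmb5, Psmb6, Psmb7), 1 point per library, with mean ± SD beside the points of each group. EC libraries lie between 0.601 and 1.45, all above the fibroblast and cardiomyocyte libraries.

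TAP1 and TAP2 form the peptide transporter. Tap1 had 33.6, 25.6, 31.3 and 32.1 CPM in Sham ECs, at most 11.8 in fibroblasts and at most 10.9 in cardiomyocytes, with log2 differences of 1.56 ± 0.25 (edgeR FDR = 2.74e-06) and 1.79 ± 0.28 (edgeR FDR = 9.55e-07). Tap2 had 12.4, 13.4, 11 and 10.9 CPM in ECs, 7.4, 4.12, 3.54 and 3.23 in fibroblasts, and 5.79, 6.56, 0.782 and 4.59 in cardiomyocytes. Every EC value was above every other. The log2 difference of Tap2 was 1.37 ± 0.43 from fibroblasts (edgeR FDR = 0.0102) and 1.38 ± 0.47 from cardiomyocytes (edgeR FDR = 0.0137), and the last call was lost without cardiomyocyte library 3, which had the lowest Tap2 value (log2 difference 1.07, edgeR FDR = 0.063). Tapbp, which encodes tapasin, differed little between the populations, at 196 ± 35.2, 187 ± 32.5 and 141 ± 7.55 CPM in ECs, fibroblasts and cardiomyocytes. ECs and fibroblasts were 0.06 ± 0.22 apart on the log2 scale (edgeR FDR = 0.854), and ECs and cardiomyocytes 0.47 ± 0.22 (edgeR FDR = 0.0729). The difference from cardiomyocytes passed the threshold in 3 of 8 other settings, DESeq2 among them (FDR = 0.0299). It also passed in 1 of the 8 fits that left out a library.

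H2-K1 and H2-D1 are the classical heavy chains, and B2m encodes the light chain they need to reach the surface. H2-K1 had 455, 599, 401 and 566 CPM in Sham ECs, 244, 214, 171 and 265 in fibroblasts, and 125, 129, 128 and 133 in cardiomyocytes. The 3 groups did not overlap, and each pair of populations differed, fibroblasts from cardiomyocytes by 0.79 ± 0.20 on the log2 scale (edgeR FDR = 0.00119). H2-D1 had the same order, with 409 ± 55, 197 ± 54.6 and 94 ± 8.9 CPM. B2m had 278, 674, 431 and 487 CPM in ECs and 204, 272, 165 and 390.1 in fibroblasts, which overlapped, and the difference of 0.86 ± 0.38 on the log2 scale did not pass (edgeR FDR = 0.0717). Cardiomyocytes, at 95.1 to 109.9 CPM, were below both, with log2 differences of 2.20 ± 0.40 from ECs (edgeR FDR = 1.94e-05) and 1.34 ± 0.39 from fibroblasts (edgeR FDR = 0.00484). Of 451 stretches of 50 bases in the last 500 bases of the longest transcripts, 2 of H2-K1 and 41 of H2-D1 occurred in transcripts of other genes, so some reads of H2-D1 could be shared out. With the counts of H2-K1, H2-D1 and the nonclassical H2 heavy chains of the list described further on summed to 1 row, the difference between ECs and fibroblasts was 1.33 ± 0.21 (edgeR FDR = 1.82e-06).

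Nlrc5 encodes the transactivator of class I genes. It had 9.49, 8.84, 5.82 and 11.7 CPM in Sham ECs, at most 3.32 in fibroblasts and at most 2.57 in cardiomyocytes, where only 1 to 4 counts per library were behind it. The log2 difference of ECs from fibroblasts was 1.97 ± 0.54 (edgeR FDR = 0.00333) and from cardiomyocytes 2.47 ± 0.63 (edgeR FDR = 0.00117). Between fibroblasts and cardiomyocytes, B2m, H2-K1 and H2-D1 were higher in fibroblasts and Psmb10 was higher in cardiomyocytes, beside 22.7% and 24.5% of all genes in those directions. The other 6 genes did not pass there.

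Other genes of the pathway, taken from lists of its parts, gave a like picture for the heavy chains. Of 17 nonclassical heavy chains and relatives, 10 could be tested, and 6 were higher in Sham ECs than in fibroblasts and 8 than in cardiomyocytes. H2-Q7, a heavy chain that exists in surface and secreted forms, averaged 66.9 ± 12.7 CPM in ECs, 2.9 ± 3.12 in fibroblasts and 9.75 ± 2.47 in cardiomyocytes, and H2-Q6, its close relative, 77.1 ± 19, 6.21 ± 5.41 and 14.1 ± 4.85. These neighbours are near copies, so how reads were shared between them is uncertain. The genes for loading and trimming peptides were split. Tapbpl, a relative of tapasin that edits peptides, was higher in ECs than in fibroblasts by 1.16 ± 0.25 (edgeR FDR = 0.000195), while the chaperones Calr and Hspa5 were lower (log2 differences -1.15 ± 0.21 and -1.18 ± 0.23, edgeR FDR = 1.68e-05 and 4.47e-05). In all, 2 of these 10 genes were higher and 6 lower in ECs.

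Interferon-induced genes were higher in ECs as well. Of 27 tested, 21 were higher and 0 lower in Sham ECs than in fibroblasts, with a median log2 difference of 1.46, and 23 were higher and 0 lower than in cardiomyocytes, with a median of 1.78. Gbp4, an interferon-induced GTPase, averaged 83.1 ± 12.6 CPM in ECs and 3.05 ± 2.79 in fibroblasts. Rsad2, which encodes the antiviral protein viperin, averaged 245 ± 22 and 9.51 ± 3.97. Irf1, a transcription factor of class I genes, was higher in ECs by 1.28 ± 0.28 on the log2 scale (edgeR FDR = 0.000236). Leukocyte markers summed to 14.1 to 42.5 CPM in Sham ECs, and to 11.3 to 37.7 in 3 Sham fibroblast libraries and 644 in library 2, each on the scale of its population. Of 10 tested, 0 were higher and 3 lower in ECs (Fcer1g, Lyz2 and Csf1r), with that library 2 included, and Lyz2, the lysozyme of myeloid cells, ranged from 0 to 301 CPM in Sham fibroblasts. The part of leukocyte RNA in the differences between populations was not tested beyond the values given without that library. Ptprc, which encodes CD45, had 0 to 3 counts in each Sham EC library.

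The next comparison asked what infarction with 2 h of reperfusion did to these genes within each population. In ECs, Psmb9 and Psmb8 fell in Control-AMI relative to Sham, and no gene of the 10 rose. These were 2 of 10 genes, beside 2.47% of the 10438 genes tested that were lower in Control-AMI. The log2 differences of the genes other than Tap2 ran from -1.33 to -0.06, all below 0, beside a median of -0.02 over all genes. The Control-AMI libraries here are those of the comparison the choice of genes used. Tap2 is therefore left out of that range and given without a test.

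**Figure D3:**
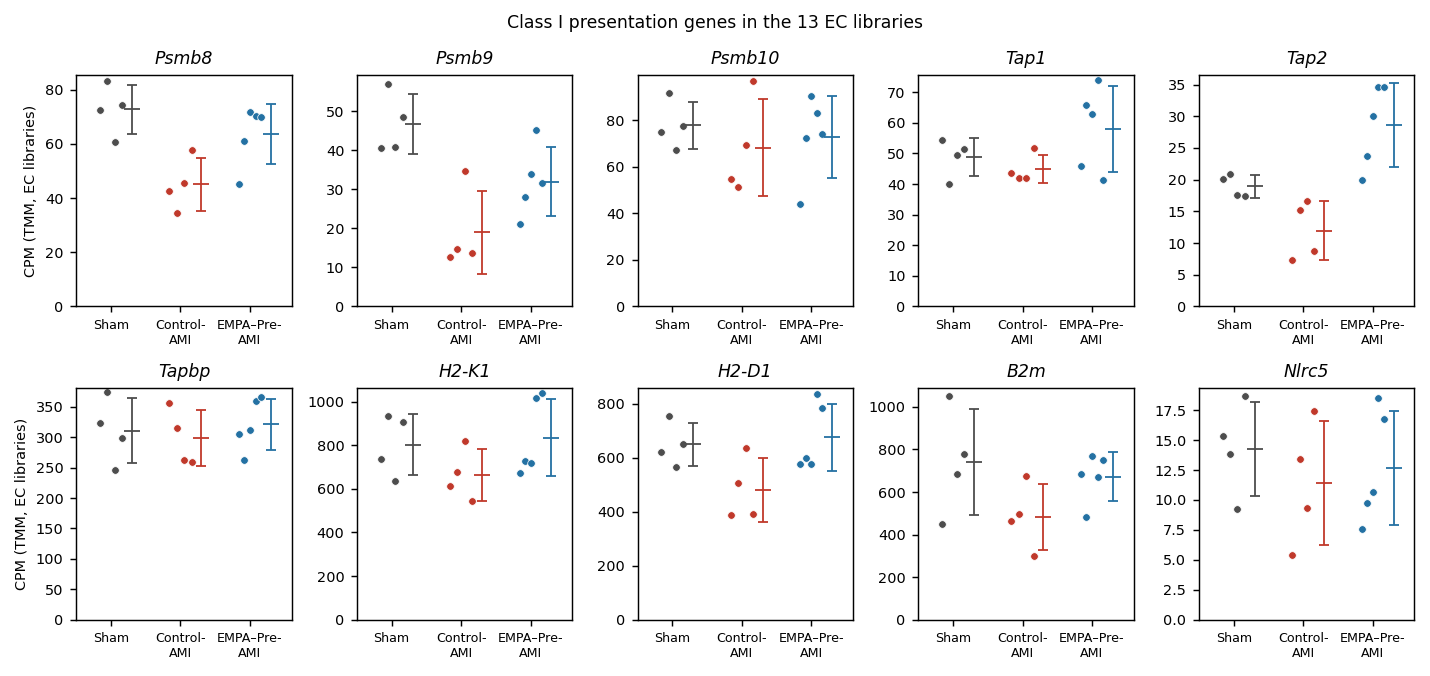
CPM (linear axes from 0, TMM over the EC libraries) of each gene in the 13 EC libraries, by group. Points are libraries and bars show mean ± SD. Control-AMI values of Psmb9 and Psmb8 lie below all Sham values, as do those of Tap2, and those of the other genes overlap with Sham. Tap2 was chosen on part of these libraries, and the share of all genes without overlap was not counted.

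Psmb9 had 40.7, 57, 40.9 and 48.6 CPM in the Sham EC libraries, on the scale of the EC libraries alone, and 12.7, 14.6, 34.8 and 13.7 in Control-AMI. All Control-AMI values were below all Sham values, and library 3 stood above the other 3. Psmb9 fell by 1.33 on the log2 scale (log2 difference -1.33 ± 0.29, edgeR FDR = 0.00804). Library 3 of Control-AMI was also the one with 788 CPM of the leukocyte markers, where the other EC libraries held 14.1 to 152, and with 372 CPM of 11 class II genes, where the others held 12.4 to 56.1. Without it, the difference was -1.79 (edgeR FDR = 0.000717).

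Psmb8 had 72.6, 83.2, 60.8 and 74.3 CPM in Sham and 42.6, 34.4, 45.4 and 57.9 in Control-AMI, which did not overlap. It fell by 0.69 on the log2 scale (log2 difference -0.69 ± 0.20, edgeR FDR = 0.0396), near the threshold, and 7 of the 13 fits that left out a library put it above 0.05, at up to 0.12. Psmb10 averaged 77.9 ± 10.3 CPM in Sham and 68.2 ± 20.8 in Control-AMI (log2 difference -0.20 ± 0.22, edgeR FDR = 0.684). Of the 14 constitutive core genes, 1 rose, Psma4 (0.55 ± 0.15, edgeR FDR = 0.0292), and none fell, with a median log2 difference of 0.00. The ratio of inducible to constitutive subunits was 0.601, 0.711, 0.882 and 0.852 in Control-AMI ECs, below the lowest Sham value of 0.908.

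Tap1, which shares its upstream stretch with Psmb9, had 54.3, 39.9, 49.6 and 51.4 CPM in Sham and 43.5, 42, 42.1 and 51.7 in Control-AMI. The values overlapped, and the log2 difference was -0.12 ± 0.21 (edgeR FDR = 0.811). Tap2 had 20.1, 20.9, 17.5 and 17.4 CPM in Sham and 7.26, 15.2, 16.7 and 8.72 in Control-AMI, a log2 difference of -0.68 ± 0.30, and these groups did not overlap. Tapbp differed by -0.06 ± 0.16.

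B2m had 450.1, 1052, 684 and 778 CPM in Sham ECs and 465, 495, 673 and 299 in Control-AMI, which overlapped, with a log2 difference of -0.62 ± 0.25 (edgeR FDR = 0.167). H2-D1 had 621, 756, 567 and 652 CPM in Sham and 387, 508, 636 and 389.7 in Control-AMI, and differed by -0.44 ± 0.18 (edgeR FDR = 0.154). Without Control-AMI library 3, the leukocyte-rich one, H2-D1 passed at -0.61 (edgeR FDR = 0.0378), and without Sham library 1, B2m passed at -0.80 (edgeR FDR = 0.0415). H2-K1 differed by -0.27 ± 0.18 (edgeR FDR = 0.427) and Nlrc5 by -0.32 ± 0.39 (edgeR FDR = 0.705). None of these values shows that the genes were unchanged.

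RNA of fibroblast markers moved with the same groups. The summed CPM of the 10 markers was 837 to 2449 in Sham ECs, 14333, 3374, 4126 and 7590 in Control-AMI ECs and 742 to 1455 in EMPA–Pre-AMI ECs, and 8 of the 9 markers tested were higher in Control-AMI than in Sham. The summed endothelial markers went the other way, with 16552 to 17760 CPM in Sham, 8896 to 12026 in Control-AMI and 12445 to 17508 in EMPA–Pre-AMI. All 10 endothelial markers had log2 differences below 0 between Control-AMI and Sham, 3 of them called, with a median of -0.53. No marker of these 2 lists was at 0 in all libraries of an EC group, and of the leukocyte list Adgre1 and Coro1a were at 0 in all Sham ECs. The part of this RNA in the results was not tested beyond the alternatives that follow. Without Control-AMI libraries 1 and 4, which held the most fibroblast RNA, Psmb9 differed by -0.93 (edgeR FDR = 0.17) and Psmb8 by -0.86 (edgeR FDR = 0.0717), and with the summed fibroblast markers as a covariate by -0.89 (edgeR FDR = 0.714) and -0.95 (edgeR FDR = 0.481). Both kept their direction and neither passed. Without library 1 alone, Psmb9 differed by -1.15 (edgeR FDR = 0.0353) and Psmb8 by -0.65 (edgeR FDR = 0.106). Both alternatives were chosen after the data were seen. The sample descriptions number the libraries without giving the numbers a meaning. Lists were inferred from them here, with a new list wherever the library number fell along the order of the sample numbers. Control-AMI libraries 1 and 4 were the 2 EC libraries of 1 such list. With a term for the list, Psmb9 differed by -0.90 (edgeR FDR = 0.188), and among the 8 EC libraries of the largest list by -0.99 (edgeR FDR = 0.167).

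**Figure D4:**
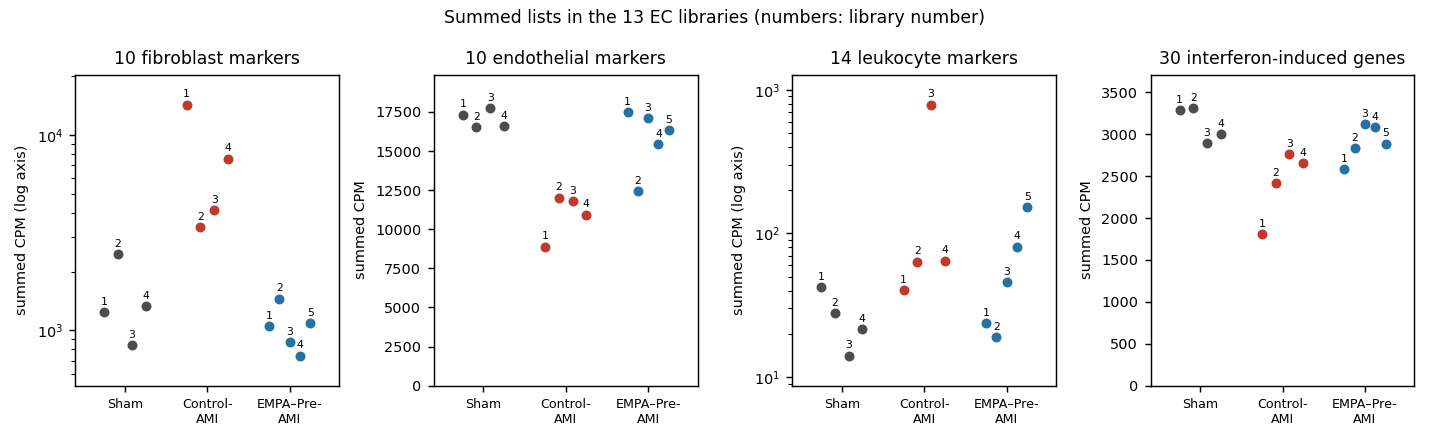
Summed CPM of fibroblast markers, endothelial markers, leukocyte markers and interferon-induced genes in the 13 EC libraries, with log axes for fibroblast and leukocyte markers. Points carry the library number within the group, and Control-AMI is highest for fibroblast markers, lowest for endothelial markers and has 1 library high in leukocyte markers.

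The interferon-induced genes of ECs leaned the same way as the class I genes, with 4 of 27 lower and 1 higher in Control-AMI than in Sham, beside 2.47% and 4.09% of all genes, and a median log2 difference of -0.53. Gbp4 fell from 132 ± 21.3 to 70.1 ± 12.9 CPM (edgeR FDR = 0.00255), Gbp7, another GTPase of that family, from 413 ± 81.6 to 245 ± 14.9 (edgeR FDR = 0.00439) and Igtp, which acts against intracellular pathogens, from 70.4 ± 14.5 to 38.6 ± 7.05 (edgeR FDR = 0.011). Cxcl10, a chemokine that attracts T cells and also answers to NF-kappaB, rose from 0.952 ± 0.449 to 8.11 ± 4.49 CPM (edgeR FDR = 0.0129), and Irf8, a transcription factor best known from myeloid cells, from 25.7 ± 8.23 to 68.6 ± 20.9 (edgeR FDR = 0.00366). The chaperones Hspa5 (0.88 ± 0.18, edgeR FDR = 0.00484) and Calr (0.56 ± 0.17, edgeR FDR = 0.0444) rose, the only calls among the 10 loading and trimming genes. Of the 9 heavy chain relatives tested, 0 passed, with a median of -0.37. None of the 10 assembly and activator genes passed.

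EMPA–Pre-AMI ECs were compared with Sham ECs next. None of the 10 genes passed, beside 2.71% of all genes in both directions. Leaving out Tap2, Psmb9 alone had an unadjusted edgeR p under 0.05, beside 14.1% of all genes. DESeq2 called 0 as well. The median log2 difference was -0.03, with 5 genes above 0 (Tap2 among them) and 5 below. Psmb9 had 21, 28.1, 33.9, 45.1 and 31.7 CPM in EMPA–Pre-AMI, so that 4 of the 5 lay below the lowest Sham value of 40.7, and the log2 difference was -0.55 ± 0.27 (edgeR FDR = 0.35). Psmb8 differed by -0.19 ± 0.19, Psmb10 by -0.10 ± 0.21, B2m by -0.14 ± 0.23, H2-K1 by 0.06 ± 0.17 and H2-D1 by 0.06 ± 0.17. Tap2, chosen on these libraries, lay 0.59 ± 0.27 above Sham. Gbp4 and Igtp were still lower than in Sham (log2 differences -0.59 ± 0.16 and -0.70 ± 0.19, edgeR FDR = 0.0456 and 0.044), and Irf8 (1.68 ± 0.26, edgeR FDR = 0.000658) and Cxcl10 (2.64 ± 0.70, edgeR FDR = 0.0411) were still higher.

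The comparison that the choice of genes used, EMPA–Pre-AMI against Control-AMI in ECs, is described only. Tap2 had 19.9, 23.8, 30, 34.6 and 34.7 CPM with EMPA and 7.26, 15.2, 16.7 and 8.72 without. The 2 groups did not overlap, and the fitted log2 difference was 1.27 ± 0.28. In this comparison, 2.63% of all genes were called, 36 higher and 238 lower with EMPA. The lowest Tap2 values, 7.26 and 8.72 CPM, were in Control-AMI libraries 1 and 4, those with the most fibroblast marker RNA, and without these 2 libraries the difference was 0.82, and without library 1 alone 1.05. With the fibroblast marker sum as a covariate it was 0.41. The other 9 genes had log2 differences between 0.10 and 0.77, all above 0, with Psmb9 at 0.77 ± 0.29, Psmb8 at 0.50 ± 0.19, H2-D1 at 0.49 ± 0.17, B2m at 0.47 ± 0.24, Tap1 at 0.37 ± 0.20, H2-K1 at 0.33 ± 0.17, Nlrc5 at 0.16 ± 0.37, and Psmb10 and Tapbp at 0.10. Each of these 9 overlapped between the groups, and the share of all genes that did so was not counted. The share of all genes above 0 is not given here, so the common direction cannot be read as particular to these 9. The 3 pairs of EC groups share libraries, so their values are not independent of each other.

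Over the 13 EC libraries, the gene whose log2 CPM ran most like that of Tap2 was H2-D1, with a Pearson correlation of 0.88, the highest of 10437 genes, ahead of Csnk1e, which encodes a casein kinase, and Abcc4, which encodes a membrane transporter, both at 0.86. H2-K1 came at rank 78 (0.73) and Psmb9 at rank 203 (0.66), while Tap1, the partner of Tap2 in the transporter, came at rank 1535 (0.40) and Psmb10 at rank 2865 (0.25). These values describe the libraries, include those Tap2 was chosen on, and share their group means and marker RNA.

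In fibroblasts, none of the 9 genes tested passed in any comparison, by edgeR or by DESeq2. Between Control-AMI and Sham, 4.16% of 10691 genes were called and the 9 genes had a median log2 difference of -0.33, with 1 of the 9 at an unadjusted p under 0.05, beside 19.2% of all genes. Psmb9 had 3.75, 13.6, 3.47 and 9.9 CPM in Sham fibroblasts and 2.68, 3, 1.94 and 5.76 in Control-AMI, from 4 to 31 counts, and differed by -1.18 ± 0.55 (edgeR FDR = 0.252). Without the leukocyte-rich Sham library 2 it differed by -0.77 (edgeR FDR = 0.57). Of the 23 interferon-induced genes tested, edgeR called 0. Of the other lists, Hspa5 (1.04 ± 0.24, edgeR FDR = 0.0212) and Rela, a subunit of NF-kappaB (0.82 ± 0.18, edgeR FDR = 0.0178), rose.

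Between EMPA–Pre-AMI and Sham fibroblasts, 5.11% of genes were called and again 0 of the 9, with 3 of the 9 at an unadjusted p under 0.05, beside 20.8% of all genes. Psmb10 had 48.8, 49.3, 43.8 and 47.1 CPM in Sham and 25.4, 29.5, 34.3 and 37.4 in EMPA–Pre-AMI, which did not overlap, and differed by -0.58 ± 0.21 (edgeR FDR = 0.121). Psmb8 differed by -0.81 ± 0.28 (edgeR FDR = 0.105). Between EMPA–Pre-AMI and Control-AMI, 0% of the 10691 genes were called by edgeR, and none of the 9 had an unadjusted p under 0.05, beside 1.59% of all genes. Tap2 had 3.83, 1.5, 3.88 and 10.3 CPM in Control-AMI fibroblasts and 12.5, 5.79, 6.32 and 6.32 in EMPA–Pre-AMI, which overlapped, with a log2 difference of 0.66 ± 0.52 (edgeR FDR = 1). It rested on 4 to 25 counts per library.

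**Figure D5:**
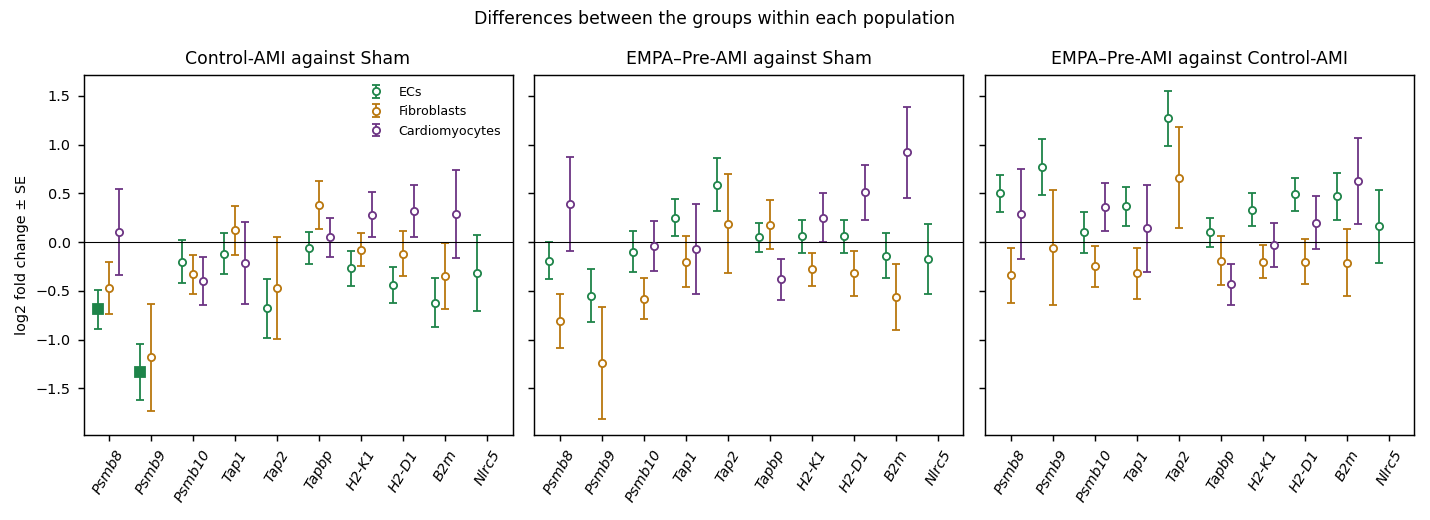
Fitted log2 differences ± SE of each gene in the 3 comparisons of groups, in ECs, fibroblasts and cardiomyocytes. Filled squares passed an FDR below 0.05 (Psmb8 and Psmb9 in ECs, Control-AMI against Sham), open circles did not or, for ECs in the right panel, were not tested, and a gene with no symbol did not pass the count filter.

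In cardiomyocytes, none of the 7 genes tested passed between Control-AMI and Sham, beside 0.0655% of 9167 genes, between EMPA–Pre-AMI and Control-AMI, beside 0.0218%, or between EMPA–Pre-AMI and Sham, beside 0.338%. At an unadjusted p under 0.05 the counts were 0, 1 and 0 of 7, beside 2.72%, 25% and 18.2% of all genes, and DESeq2 called 0 in each. B2m had 41.7, 48.8, 41.7 and 46.8 CPM in Sham, 49.7, 83.2, 20.4, 66 and 54.2 in Control-AMI, and 70.5, 191, 44.1 and 38 in EMPA–Pre-AMI. Its spread was wider in both infarcted groups than in Sham, and the largest log2 difference, EMPA–Pre-AMI against Sham, was 0.92 ± 0.47 (edgeR FDR = 0.314). The library at 191 CPM, EMPA–Pre-AMI library 2, also had the highest Psmb8 of its group (18.8 CPM, the others 3.09 to 4.22) and 249 CPM of leukocyte markers, where the other 3 held 31 to 97.3. Without it, B2m differed from Sham by 0.18 (edgeR FDR = 0.817). Tap2, Psmb9 and Nlrc5 had 0 to 13 counts in each cardiomyocyte library and did not pass the count filter of this fit.

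Whether the effect of infarction differed between the populations was tested in 1 model of all libraries. None of the 10 genes passed between ECs and fibroblasts (beside 3.22% of genes), ECs and cardiomyocytes (1.51%) or fibroblasts and cardiomyocytes (0.331%). At an unadjusted p under 0.05 there were 0, 2 and 1 of 10, beside 12.8%, 9.09% and 8.47% of all genes, and DESeq2 called 0 in each. For Psmb9, the Control-AMI effect in ECs was -0.14 ± 0.75 relative to that in fibroblasts (edgeR FDR = 0.983) and -1.80 ± 0.76 relative to that in cardiomyocytes (edgeR FDR = 0.39). The fall of Psmb9 and Psmb8 is thus not shown to be particular to ECs.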

How the data were processed

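Per the labels and the study's methods, 3′ RNA-seq reads (QuantSeq, 1 tag near the end of each transcript) were trimmed with cutadapt 2.8 and quantified with Salmon against GRCm39. The authors deposited estimated counts for 35682 genes in 38 libraries, and 4.55% of the values were not whole. They were rounded to whole numbers here. Genes kept by filterByExpr (minimum count 10) were tested with edgeR 4.0.16 (quasi-likelihood, TMM, robust) in R 4.3.3, with 1 fit per population over its 3 groups and 1 fit of all libraries for Sham populations and interactions. A gene was called at a Benjamini-Hochberg FDR below 0.05 over all genes tested, and tests are two-sided. DESeq2 1.42.0, other scalings and filters, left-out libraries, the replicate block and the lists inferred from the sample descriptions were alternatives. The members, gene lists and tests were chosen with earlier results of these data known. Beside the 10 genes, the text names up to 4 genes of each list with the largest called difference per comparison, and the 3 genes most correlated with Tap2. Ptprc, Adgre1 and Coro1a were named after their values were seen. The fits were tested on simulated data.

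Samples were grouped by their titles. Each library pooled 2 hearts, and the sources used here do not say which libraries of different populations share hearts. P-values measure the spread between these libraries. In 62 pairs of replicates, counts differed by more than sampling noise (chi-square per degree of freedom 4.61 to 87.1). No pair was thus the same library read again. These values cannot tell separate hearts from separate preparations of the same hearts. At these depths 3 counts, the level below which a value is near 0, equalled 1.37 to 2.22 CPM in ECs, 1.06 to 1.54 in fibroblasts and 0.665 to 1.48 in cardiomyocytes. Gene symbols came from the GRCm39 annotation, which named 35407 of the genes.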

Additional observations from a re-analysis of the deposited data

Results flagged for a closer look

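In 90 sets of libraries (10 genes in 9 groups), 7 held a library far from the others of its group by Dixon's test, which chance gives in about 1 of 20 sets. In ECs, Psmb9 was 34.8 CPM in Control-AMI library 3 (the others 12.7 to 14.6), which also had the most leukocyte marker RNA, and Tap1 was 51.7 CPM in Control-AMI library 4 (42 to 43.5). In fibroblasts, Tap1 was 13.4 CPM in Control-AMI library 1 (17.4 to 18.1) and 18 CPM in EMPA–Pre-AMI library 4 (11.1 to 12.1), Tap2 was 12.5 CPM in EMPA–Pre-AMI library 1 (5.79 to 6.32) and Psmb9 was 5.8 CPM in EMPA–Pre-AMI library 3 (2.08 to 2.63). In cardiomyocytes, Psmb8 was 18.8 CPM in EMPA–Pre-AMI library 2 (3.09 to 4.22), which held 249 CPM of leukocyte markers.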

How the results depend on the processing

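Of 2505 values of single genes under the alternatives, leaving out the comparison the choice of genes used, 2465 kept their side of the threshold, 23 lost a call, 17 gained one and 0 reversed a called value. Some values that were not called changed sign. In ECs between Control-AMI and Sham, the count of called genes, 2 as reported, was 1 in a fit of only the 2 groups. It was 0 with a term for the inferred list, in the largest list alone, without the 2 libraries richest in fibroblast RNA and with the fibroblast covariate. The count was 1 to 2 when a library was left out. The share of all genes called under each of these settings is not given here, so the counts cannot be read as particular to these genes. EMPA–Pre-AMI against Control-AMI in ECs is the comparison the choice of genes used, and no count of called genes is given for it. The log2 difference of Tap2 there was smaller under each alternative described above. In cardiomyocytes between EMPA–Pre-AMI and Control-AMI, leaving out a library gave 0 to 1, the 1 being Tapbp (-0.63, edgeR FDR = 0.0443) without EMPA–Pre-AMI library 4. The cause was not tested.

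The labels give no meaning to the replicate numbers. Same-numbered libraries had correlations of their deviations of -0.06 to 0.21 in ECs (3 of 12 above 0.1), -0.11 to 0.48 in fibroblasts (6 of 12) and -0.09 to 0.18 in cardiomyocytes (3 of 12). Their medians were 0.04, 0.10 and 0.02 in that order, and those of differently numbered libraries -0.01, -0.01 and -0.03. The main fits did not take the numbers as pairs, though some same-numbered fibroblast libraries ran alike, and a block for the number was an alternative. With the replicate block, the counts were 2 in ECs between Control-AMI and Sham, and 5 (4 as reported) for Sham fibroblasts against cardiomyocytes. They were 8 for Sham ECs over fibroblasts, 8 over cardiomyocytes, and 0 in the other comparisons tested. The share of all genes called with the block is not given here, so these counts cannot be read as particular to these genes. Tap2, Psmb9 and Nlrc5 rested on few counts outside ECs.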
